A study of Mus musculus with 9 samples.

Results

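Tyr, Tyrp1 and Dct encode the 3 enzymes of the tyrosinase family, which make melanin in the melanosomes of pigment cells. They were the 3 rows of the deposited table whose gene name is Tyr, Tyrp1 or Dct, out of 16299 genes. All 3 names were found, and each gene had a value above 0 in every one of the 9 libraries, so no filter on low values touched them. Tyrosinase, made from Tyr, oxidises tyrosine to dopaquinone and is the rate-limiting step for all melanin. Dopachrome tautomerase, made from Dct, converts dopachrome to a carboxylated dihydroxyindole, and Tyrp1 acts further along the brown-black eumelanin branch in mice and also stabilises tyrosinase. All 3 genes are classical targets of the transcription factor Mitf, and loss of Tyr function leaves mice albino whereas mutations of Tyrp1 and Dct turn black coats brown or slate.

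The libraries were made from melanocytes that had been isolated from mouse epidermis by fluorescence-activated sorting. Knockout tail libraries (3) came from tail epidermis of Spry1flox/flox k14-Cre-ERT2 mice, knockout back libraries (3) from back epidermis of the same genotype, and control tail libraries (3) from tail epidermis of Spry1flox/flox mice, so every group carried the floxed Spry1 allele. The Spry1 protein, Sprouty 1, dampens signals from receptor tyrosine kinases. The Cre recombinase is driven by the keratin 14 promoter, which is used by basal keratinocytes, and its ERT2 domain needs an inducer such as tamoxifen; none of the sources used here gives its dose or timing, or the age of the mice. There was no control back group and the controls lacked the Cre transgene, so body site within controls and any effect of the Cre itself could not be assessed. Whether replicates were different animals is not stated in the labels; the p-values below reflect the spread among these 9 libraries, and that spread may be technical.

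Recovered totals, that is the whole counts worked back from the deposited values, in M (mega) counts, were 50.2 to 71.9 M in knockout tail, 50.9 to 60.8 M in knockout back and 69.9 to 72.3 M in control tail libraries. A shift between 2 sets of libraries had been taken out of every gene before deposit. The smaller set held the third library of each knockout group, and the larger set held the other 7, all controls among them. The first and second knockout back libraries also stood apart, with 4628 and 6127 genes at 0 against 854 to 1739 in the other 7. The targeted gene, Spry1, was at 3590, 1758 and 587 normalised counts in knockout tail and at 2283, 0 and 746 in knockout back, against 1510, 1074 and 1285 in control tail. Spry1 therefore gave no check of the genotype labels, which aim the deletion at neighbouring keratinocytes. The Y-linked transcript Eif2s3y had 2543 to 5677 recovered counts in 5 of the 6 knockout libraries, and was at 0 in the third tail library of that genotype, against 0 to 154 in control libraries. Xist, made by the inactive X chromosome of females, had 5, 19 and 6364 recovered counts in knockout tail libraries and 1313, 1266 and 2699 in knockout back, against 5354, 1711 and 4908 in control tail. The knockout back libraries thus held both transcripts, the first and second knockout tail libraries mainly Eif2s3y, and the third knockout tail library and the controls mainly Xist. The part of sex in the results was not tested.

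All 8 melanocyte markers were detected in every library, with a summed level of 2419350 to 2714650 normalised counts in knockout tail, 1678220 to 1848860 in knockout back and 1164290 to 1972270 in control tail; this list includes pigment genes and is not independent of the enzymes. All 8 basal keratinocyte markers were also present, with a sum of 12916 to 330227 normalised counts in knockout tail, 39208 to 192180 in knockout back and 39442 to 100382 in control tail. Itgb4, Trp63 and Lamb3 were at 0 in at least 1 library, and the highest 2 sums were in the 2 libraries of the smaller set. Of 8 Schwann cell markers 7 were measured, with a sum of 75492 to 94498 in knockout tail and 56072 to 122852 in knockout back, both above the 51932 to 53947 of control tail; Gfra3 and Cdh19 were at 0 in at least 1 library. Differentiated keratinocyte markers (9 of 9 measured) summed to 14030 to 158764 in knockout tail, 38551 to 212488 in knockout back and 27345 to 111873 in control tail, with Krt1, Ivl, Lor, Flg and Dsc1 at 0 in at least 1 library. Langerhans and myeloid markers (6 of 10) summed to 29576 to 42864 in knockout tail, 29560 to 35254 in knockout back and 41425 to 49650 in control tail, with Ptprc and Cd68 at 0 in at least 1 library. T cell markers (4 of 8) reached at most 1316, muscle markers (2 of 6) at most 974 and the blood marker Alas2 (1 of 6) at most 1304. Of 8 mast cell markers only Kit, which melanocytes also express, was in the table, and the 6 endothelial markers are not analysed here. What part any of these had in the results below was not tested.

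Tyr lies on the minus strand of chromosome 7 (chr7:87424771-87493512, GRCm38, GENCODE vM21; ENSMUSG00000004651.6) and its longest coding transcript has 5 exons. Tyrp1 lies on the plus strand of chromosome 4 (chr4:80834123-80851719; ENSMUSG00000005994.14) and has 8 exons. Dct lies on the minus strand of chromosome 14 (chr14:118012790-118052244; ENSMUSG00000022129.4) and has 8 exons. Dct overlaps an antisense gene, 4930435M08Rik, that is not analysed here. No source used here gives the strand setting of the counting, so reads of that gene and of Dct cannot be told apart.

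The promoters of the 3 genes share a stretch of sequence, shown here because Mitf and its relatives are known to bind pigment genes through an element of this kind, the M-box. In the RefSeq sequences of GRCm38.p6, from 250 bases before to 50 bases after each start, the longest run common to all 3 genes on their own strand was 10 bases long. This run is part of the M-box. The base before it is a in Tyr and Tyrp1 and g in Dct. Windows of 30 bases are given 5′ to 3′ on the gene's strand, with the shared run in capitals: chr7:87493516-87493545 on the minus strand for Tyr, chr4:80834155-80834184 on the plus strand for Tyrp1 and chr14:118052379-118052408 on the minus strand for Dct.
Tyr: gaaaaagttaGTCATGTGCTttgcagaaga
Tyrp1: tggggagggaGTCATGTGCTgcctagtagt
Dct: tgcacttaggGTCATGTGCTaacaaagagg

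The run lay 23 to 14 bases before the RefSeq start in Tyr, 48 to 39 bases before it in Tyrp1 and 152 to 143 bases before it in Dct. For Tyrp1, GENCODE vM21 places the gene's start further upstream, at 80834123, so the run falls inside the annotated gene there. The run GTCATGTGCT was present, on either strand, in 61 of 32851 mouse promoters (0.186%), of which 6 belonged to genes of the table, the 3 enzymes included, and in none of the 107 genes of the 7 pathway lists below that had a promoter sequence. Its core, CATGTG, which the run contains, was in 14.2% of promoters on either strand and in all 3 of these, with a second copy in Dct. The related E-box CACGTG, searched the same way, was in 7.15% of promoters and in none of the 3 windows. The 250 bases before the start of Tyr (chr7:87493513-87493762, minus strand) and of Dct (chr14:118052247-118052496, minus strand) follow, to show where the run sits in each.
Tyr: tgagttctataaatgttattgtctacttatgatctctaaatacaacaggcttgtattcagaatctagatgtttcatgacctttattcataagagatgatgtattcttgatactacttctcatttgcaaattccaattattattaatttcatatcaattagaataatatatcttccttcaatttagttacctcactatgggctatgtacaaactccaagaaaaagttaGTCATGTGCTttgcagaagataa
Dct: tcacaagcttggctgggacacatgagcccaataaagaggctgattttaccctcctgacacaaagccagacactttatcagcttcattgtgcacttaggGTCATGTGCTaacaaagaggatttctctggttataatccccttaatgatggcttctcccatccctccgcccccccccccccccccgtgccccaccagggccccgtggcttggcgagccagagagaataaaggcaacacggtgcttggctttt

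The 3 transcripts were among the most abundant of the sorted cells. In every library of the larger set Dct had the highest recovered count of any gene, and it took 3.44% to 3.82% of all counts in the 4 knockout libraries of that set and 2.75% to 3.05% in the 3 controls. In the 2 libraries of the smaller set Tyrp1 was the highest gene instead, with 3.80% of counts in the third knockout tail library and 2.71% in the third knockout back library, while Dct took 1.39% and 1.72%. Tyr ranked between 6 and 35 and took 0.219% to 0.718%. At these depths counting error was small: the 95% Wilson binomial interval of the lowest share, Tyr in the first knockout back library, was 0.218% to 0.220%, and it covers counting error only.

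Per kilobase of transcript (normalised counts divided by the length of the longest coding transcript), the order was Dct, Tyrp1, Tyr in all 7 libraries of the larger set. It was Tyrp1, Dct, Tyr in both libraries of the smaller set, and the order was the same when coding length was used. In the larger set the levels were 879 ± 116 K (kilo) normalised counts per kilobase for Dct, 273 ± 97.5 K for Tyrp1 and 28.2 ± 5.86 K for Tyr (SD, n = 7), with no overlap between the genes. In the smaller set Dct had 367 and 465 K per kilobase, Tyrp1 had 811 and 593 K, and Tyr had 68.9 and 43.1 K. The gap of Tyr to the others depends on its long transcript, since per kilobase of coding sequence the larger-set means were 1248 K for Dct, 461 K for Tyrp1 and 107 K for Tyr.

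Levels before the shift was taken out were read from the recovered counts divided by each library's size factor. Tyr had 192, 190 and 416 K normalised counts in knockout tail and 133, 137 and 261 K in knockout back, against 160, 152 and 231 K in control tail. Tyrp1 had 1147, 1089 and 2205 K in knockout tail and 644, 686 and 1614 K in knockout back, against 611, 488 and 535 K in control tail. Dct had 2216, 2162 and 808 K in knockout tail and 2082, 2063 and 1025 K in knockout back, against 1698, 1778 and 1556 K in control tail.

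The third library of each knockout group was the highest of its group for Tyr and Tyrp1 and the lowest for Dct. For each enzyme the 2 libraries of the smaller set did not overlap the 7 of the larger set. On the log2 scale, the shift taken out (smaller set minus larger set) was 0.97 for Tyr, 1.42 for Tyrp1 and -1.08 for Dct. A shift at least as large, in either direction, had been removed from 19.2% of genes for the size seen in Tyr, 7.52% for Tyrp1 and 15.6% for Dct. Since the smaller set held no control, the means of the knockout groups are given below with and without that shift.

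**Figure D1:**
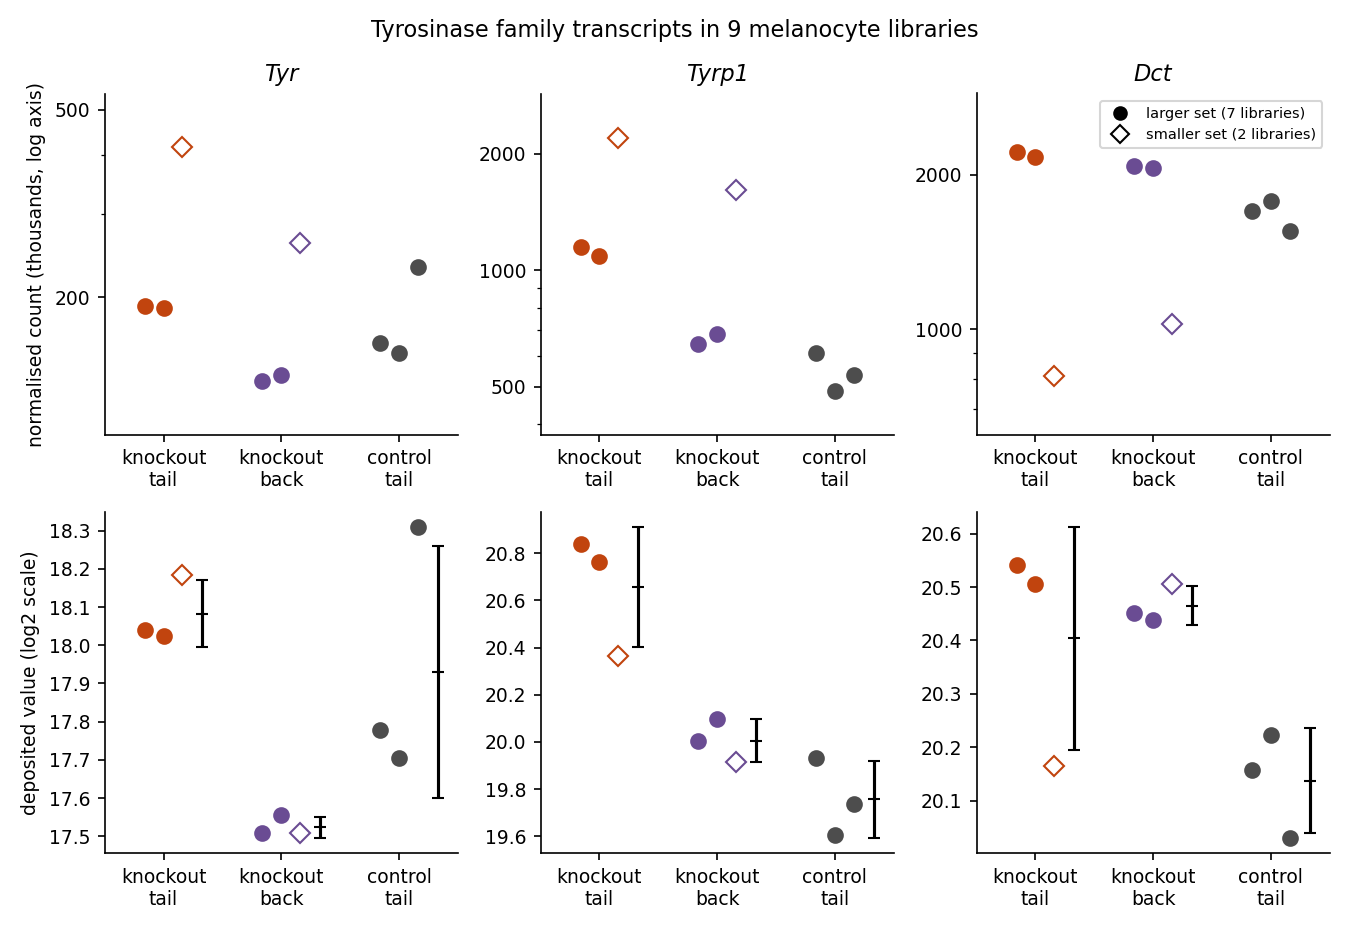
Levels of Tyr, Tyrp1 and Dct in each of the 9 libraries, as normalised counts in K on a log axis (top) and as deposited values on the log2 scale (bottom, with the mean and SD of the 3 libraries of a group). Filled circles are the 7 libraries of the larger set and open diamonds the 2 of the smaller set, which lie above the rest for Tyr and Tyrp1 and below the rest for Dct in the top row.

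The comparison of knockout tail with control tail asks how the enzymes of tail melanocytes differ in mice with the keratin 14 driven Cre. Tyrp1 was higher in every knockout tail library than in every control tail library, by 0.90 on the log2 scale (1.86-fold). The difference was 0.99 (1.99-fold) in the fit of all 9 libraries with the library set as a term, the only fit in which it passed, and 1.04 (adjusted p = 0.112) when the larger set's 7 libraries were fitted by themselves. Tyr and Dct differed by less, and their groups overlapped. Here as elsewhere in bulk samples, fewer cells of a type and less RNA per cell cannot be told apart.

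The deposited values of Tyrp1 were 20.84, 20.76 and 20.36 in knockout tail, against 19.93, 19.61 and 19.74 in control tail. All 3 knockout tail values lay above all 3 control values, the first and second by the most. The difference of 0.90 had an SE of 0.14 and an unadjusted p of 1.2e-04 in limma's moderated test, which became an adjusted p of 0.589 over 16299 genes (Benjamini-Hochberg). In this comparison limma called 0% of genes at an adjusted p of 0.05 (814 genes had an unadjusted p under 0.05; with limma-voom applied to recovered counts it was again 0). With the library set as a term the difference was 0.99 (SE 0.11, adjusted p = 0.048), and that fit called 0.0614% of genes. That call was lost in each of the 9 fits that left out 1 library, with adjusted p between 0.0877 and 0.367, with differences of 0.92 to 1.08. Settings that did not pass moved the value further: it was 1.28 in limma-voom on recovered counts (adjusted p = 0.729), 1.37 with the removed shift put back (adjusted p = 0.464) and 0.14 with quantile normalisation (adjusted p = 0.9996). The exact permutation test gave p = 0.1, the smallest that 3 against 3 libraries allow, and 15.8% of all genes had groups that did not overlap in their deposited values.

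Dct had deposited values of 20.54, 20.51 and 20.16 in knockout tail, against 20.16, 20.22 and 20.03 in control tail. The first and second knockout tail libraries lay above every control, and the third lay between controls. The difference was 0.27 (SE 0.11; 95% interval 0.02 to 0.51; limma adjusted p = 0.929), and 0.32 with the library set as a term (adjusted p = 0.656). As mean normalised counts Dct was at 1729 ± 798 K in knockout tail and 1677 ± 113 K in control tail (SD, n = 3 each), a difference far inside the spread of the knockout libraries.

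Tyr had deposited values of 18.04, 18.02 and 18.18 in knockout tail, against 17.78, 17.71 and 18.31 in control tail. The third control library was the highest of the 6 and the other 2 controls were the lowest. The difference was 0.15 (SE 0.15; 95% interval -0.20 to 0.50; limma adjusted p = 0.9997; exact permutation p = 0.5).

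The comparison of knockout back with knockout tail asks how the enzymes differ between body sites within the knockout genotype. Tyr and Tyrp1 were lower in every back library than in every tail library in the deposited values. They were lower by 0.56 and 0.65 on the log2 scale (0.68-fold and 0.64-fold). Neither passed the threshold, with a limma adjusted p of 0.0955 for Tyr and 0.0552 for Tyrp1. Dct was at about the same level at both sites. Without a control back group, a site difference of the knockout cannot be told from one that control skin would also show.

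Tyr had deposited values of 17.51, 17.56 and 17.51 in knockout back, against 18.04, 18.02 and 18.18 in knockout tail. The 3 back libraries lay within 0.05 of each other and all below the lowest tail library. That closeness holds only after the shift was taken out, since their normalised counts were 133, 137 and 261 K. The difference was -0.56 (SE 0.15; 95% interval -0.91 to -0.21; limma adjusted p = 0.0955). Of the 9 fits that left out 1 library, it passed in the one without the third control library, the highest of all 9 for Tyr (adjusted p = 0.0451), and not in the other 8 (0.0964 to 0.22). It did not pass with the library set as a term (adjusted p = 0.143), in limma-voom on recovered counts (-0.46, adjusted p = 0.537) or with the removed shift put back (adjusted p = 0.520).

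Tyrp1 had deposited values of 20.01, 20.10 and 19.91 in knockout back, against 20.84, 20.76 and 20.36 in knockout tail. The groups did not overlap. The difference was -0.65 (SE 0.14; 95% interval -0.96 to -0.34; limma adjusted p = 0.0552), with an adjusted p of 0.0569 when the library set was a term. Of the 9 fits that left out 1 library, it passed in the one without the third knockout back library (adjusted p = 0.0495) and not in the other 8 (0.0807 to 0.173). On recovered counts, limma-voom gave -0.51 with group only (adjusted p = 0.484) and -0.51 with the library set as a term (adjusted p = 0.0262). With the removed shift put back the adjusted p was 0.458, and with quantile normalisation the difference was -0.07 (adjusted p = 0.708). In the plain normalised counts the groups overlapped for both genes, because the third back library exceeded the first and second tail libraries.

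Dct had deposited values of 20.45, 20.44 and 20.51 in knockout back, against 20.54, 20.51 and 20.16 in knockout tail. All 3 back libraries lay above the third tail library, and they overlapped the other 2 tail libraries. The difference was 0.06 (SE 0.11; 95% interval -0.19 to 0.31; limma adjusted p = 0.786), and it was -0.06 when the third knockout tail library was left out. In this comparison limma called 1.5% of all genes with group as the only term and 0.436% with the library set, and 23.1% of genes had groups that did not overlap; none of the 3 enzymes was called in either fit, and 2 of the 3 had groups that did not overlap. The call count over all genes rests on single libraries: it was 244 with all 9, 1972 without the third knockout back library and between 3 and 111 without any other single library.

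The comparison of knockout back with control tail differs in both genotype and body site. Dct was higher and Tyr lower in knockout back than in control tail in every library of the deposited values, and neither passed the test. For Dct the difference was 0.33 (1.25-fold; SE 0.11; 95% interval 0.08 to 0.57; limma adjusted p = 0.105), with back values of 20.44 to 20.51 against control values of 20.03 to 20.22. On recovered counts the result depended on the set: limma-voom gave -0.08 (adjusted p = 0.915) with group only and 0.32 (adjusted p = 0.0405) with the library set as a term.

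Tyr in knockout back differed from control tail by -0.41 (0.75-fold; SE 0.15; 95% interval -0.76 to -0.06; limma adjusted p = 0.139). Without the third control library the difference was -0.22 (adjusted p = 0.243). On recovered counts limma-voom gave -0.06 with group only (adjusted p = 0.937) and -0.47 with the library set as a term (adjusted p = 0.171). With the removed shift put back it was -0.08 (limma adjusted p = 0.927). In normalised counts the groups overlapped, since the third back library lay above every control. Tyrp1 differed by 0.25 (SE 0.14, 95% interval -0.06 to 0.56, limma adjusted p = 0.290). Its groups overlapped in the deposited values, since the third back library, at 19.91, lay below the highest control, at 19.93. In normalised counts every back library lay above every control. With the library set as a term the difference was 0.34 (limma adjusted p = 0.122). On recovered counts limma-voom gave 0.76 with group only (adjusted p = 0.359) and 0.50 with the library set as a term (adjusted p = 0.0695). In this comparison limma called 1% of genes with group as the only term and 3.34% with the library set, and 29.5% of genes had groups that did not overlap. None of the 3 enzymes was called in either fit. The count of 163 called genes was 2804 without the third knockout back library and between 0 and 87 without any other single library.

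**Figure D2:**
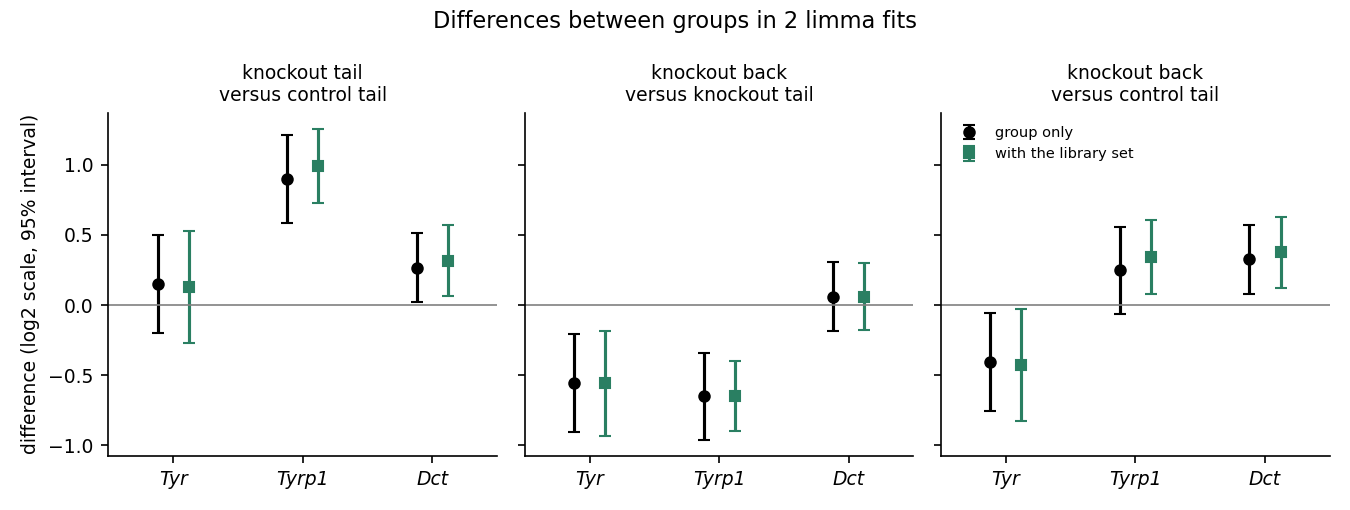
Difference of each enzyme between groups on the log2 scale with its 95% interval from limma, from the fit with group only (black circles) and the fit with the library set as a term (green squares). The intervals of Tyrp1 lie above 0 in knockout tail versus control tail, those of Tyr and Tyrp1 lie below 0 in knockout back versus knockout tail, and intervals are not adjusted for the number of genes.

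A ratio of 2 enzymes within a library does not depend on the library's size factor, and it changes only if they change unequally. The first of the 3 ratios was that of Tyrp1 to Tyr. Its recovered counts gave 5.98, 5.74 and 5.30 Tyrp1 counts per Tyr count in knockout tail libraries and 4.86, 5.004 and 6.19 in knockout back, against 3.82, 3.21 and 2.31 in control tail. Every one of the 6 knockout libraries, of either set, lay above every control. Groups without overlap were common among single genes: 15.8% for knockout tail and 29.5% for knockout back, each against control tail in the deposited values. The share over pairs of genes was not counted.

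On the deposited scale the log2 ratio of Tyrp1 to Tyr was 2.57 ± 0.34 in knockout tail and 2.48 ± 0.07 in knockout back, against 1.83 ± 0.37 in control tail (SD, n = 3 each). Knockout tail exceeded control tail by 0.75 (1.68-fold) and knockout back exceeded control tail by 0.65 (1.57-fold), and the differences were 0.89 and 0.80 in the recovered counts. With quantile normalisation the first was reversed, at -0.30, and the second was 0.71. On the deposited scale each gave an exact permutation p of 0.1, the smallest that 3 against 3 libraries allow, and 0.15 after Benjamini-Hochberg adjustment over the 9 ratio tests. Knockout back and knockout tail differed by -0.09 (exact permutation p = 0.7), with overlapping values.

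The ratio of Dct to Tyrp1 was 1.93, 1.99 and 0.367 in knockout tail libraries and 3.23, 3.01 and 0.635 in knockout back, against 2.78, 3.64 and 2.91 in control tail. All knockout tail libraries lay below all controls, and the third knockout library of each site lay far below every other library. On the deposited scale knockout tail was lower than control tail by a log2 difference of -0.63 (0.65-fold; exact permutation p = 0.1, adjusted 0.15), and the difference was -1.46 in the recovered counts. Knockout back was higher than knockout tail by 0.71 on the deposited scale (exact permutation p = 0.1, adjusted 0.15), but in the recovered counts the groups overlapped. Knockout back and control tail differed by 0.08 in the deposited values (exact permutation p = 0.6).

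The ratio of Dct to Tyr was 11.6, 11.4 and 1.94 in knockout tail libraries and 15.7, 15.1 and 3.93 in knockout back, against 10.6, 11.7 and 6.73 in control tail. Within the larger set the back libraries were the highest. On the deposited scale knockout back exceeded knockout tail by 0.62 and control tail by 0.73, each with an exact permutation p of 0.1 (adjusted 0.15). The second of these was 0.05 in the recovered counts, where the groups overlapped in both comparisons. Knockout tail and control tail differed by 0.12 (exact permutation p = 0.7).

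**Figure D3:**
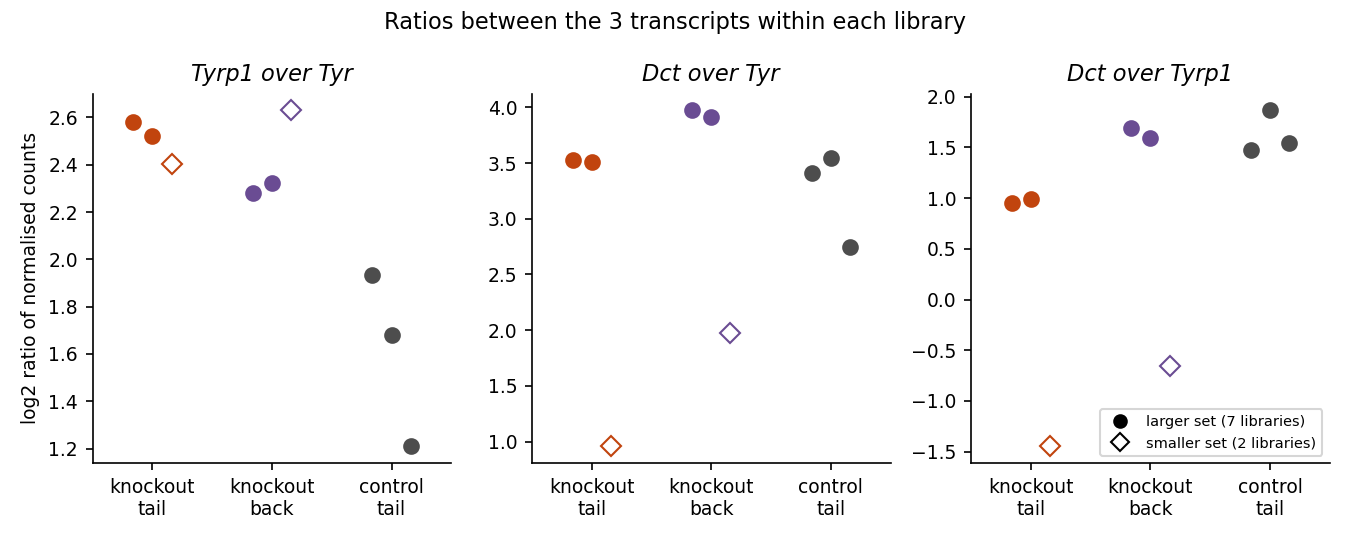
Log2 ratios of normalised counts between pairs of the 3 transcripts in each library, with the 7 libraries of the larger set as filled circles and the 2 of the smaller set as open diamonds. All 6 knockout libraries lie above the 3 controls for Tyrp1 over Tyr, and the open diamonds lie below all other libraries for the ratios with Dct on top.

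Across the 9 libraries no pair of enzymes had a correlation of deposited values that passed a permutation test. Pearson's r was 0.34 for Tyr with Tyrp1 (exact permutation p = 0.358; Spearman's rho 0.22, p = 0.581), -0.49 for Tyr with Dct (p = 0.176; rho -0.40, p = 0.291) and 0.57 for Tyrp1 with Dct (p = 0.121; rho 0.52, p = 0.162). Adjusted over the 3 pairs, these p-values were 0.358, 0.264 and 0.264 for r and 0.581, 0.437 and 0.437 for rho. Without the 2 libraries farthest from the median of the first gene of the pair, r was 0.77, 0.13 and 0.19.

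Within the 7 libraries of the larger set Tyrp1 and Dct had an r of 0.79 (exact permutation p = 0.0389, adjusted 0.117) and a rho of 0.86 (p = 0.0238, adjusted 0.0714). The r was 0.68 without the first and second knockout tail libraries, which were the highest for both genes. In the exact permutation tests of that set Tyr had an r of 0.25 with Tyrp1 (p = 0.575) and of -0.33 with Dct (p = 0.467). The smaller set has 2 libraries and gives no correlation.

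The genes whose deposited values were most like those of each enzyme over the 9 libraries were taken from 2850 genes with a mean of at least 12, and are a description. For Tyr they were Fech, the ferrochelatase of haem synthesis (r = 0.95), Otub1, a deubiquitinase (0.91), Pja2, a ubiquitin ligase (0.91), Gm2a, the lysosomal activator of ganglioside breakdown (0.90), and Cops6, a subunit of the COP9 signalosome (0.88). For Tyrp1 they were Tm9sf2 (0.96), Synpr, which encodes the synaptic vesicle protein synaptoporin (0.96), Erlin2, a protein of endoplasmic reticulum membranes (0.96), Reep3 (0.95) and Tollip, an adaptor of Toll-like receptor signalling (0.95). For Dct they were Prdx2, a peroxiredoxin (0.94), Trp53, which encodes p53 (0.92), Gm3776 (0.91), Nedd4, a ubiquitin ligase (0.90), and Acaa1a, a peroxisomal thiolase (0.90). No gene appeared among the 5 of more than 1 enzyme. Of these 15 genes Fech fell in knockout back versus knockout tail, by 1.11 on the log2 scale (limma adjusted p = 0.0392). In that comparison 1.5% of all genes were called. Fech was picked for its likeness to Tyr over these same libraries, so its fall adds nothing separate to the values of Tyr.

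Genes that work with the 3 enzymes were followed in 7 lists, with counts from the fit with group as the only term unless stated. In knockout tail versus control tail no member of any list passed limma's test, as for 0% of all genes. Between 1 and 4 members of each list had an unadjusted p under 0.05, beside 814 of all 16299 genes, and limma-voom called 0. Between knockout back and knockout tail 1 gene rose and 4 fell among the 131 measured members (3.82%, beside 1.5% of all genes), and in knockout back versus control tail 2 rose (1.53%, beside 1% of all genes). These shares, from few calls, are not read as particular to the lists. Each of these calls was lost in at least 4 of the 9 fits that left out 1 library, and all held without the third knockout back library.

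Of 12 measured genes for the melanosome matrix and melanin-related enzymes, 1 rose in knockout back. Mlana, which encodes the melanosomal protein MART-1, had 633897, 597628 and 353409 normalised counts in knockout back and 319580, 316496 and 181280 in knockout tail, against 305630, 321554 and 266368 in control tail. The back libraries were the highest of each set. Mlana rose by 0.95 in knockout back versus knockout tail (SE 0.12, limma adjusted p = 0.0214) and by 0.97 in knockout back versus control tail (SE 0.12, limma adjusted p = 0.0364), at 1.5% and 1% of all genes called. Both calls were lost in limma-voom on recovered counts with group only (0.88, adjusted p = 0.177, and 0.76, adjusted p = 0.144) and held there with the library set as a term (adjusted p = 0.00313 and 0.00223). Its difference between knockout tail and control tail was 0.02 (adjusted p = 0.9997).

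Pmel, whose product forms the fibrils on which melanin is laid down, had deposited means of 20.93 ± 0.02 in knockout tail and 19.99 ± 0.14 in knockout back, against 20.20 ± 0.52 in control tail (SD, n = 3 each). Its differences were 0.74 in knockout tail versus control tail (limma adjusted p = 0.704) and -0.94 in knockout back versus knockout tail (adjusted p = 0.0662), so neither passed. The list's median differences were 0.02, 0.13 and 0.08 for knockout tail versus control tail, knockout back versus knockout tail and knockout back versus control tail, beside -0.05, -0.18 and -0.23 over all genes.

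Of 14 measured genes for melanosome transporters and copper supply, 1 fell in knockout back versus knockout tail (beside 1.5% of all genes called) and none was called in the other 2 comparisons. Slc24a4, a potassium-dependent sodium-calcium exchanger, had 7900, 3695 and 6207 normalised counts in knockout back and 26411, 21682 and 29367 in knockout tail, against 12986, 9351 and 11341 in control tail. The 3 groups did not overlap. It fell by 2.08 in knockout back versus knockout tail (SE 0.26, limma adjusted p = 0.0211). Oca2, a melanosomal anion transporter whose loss causes pink-eyed dilution, had differences of 0.75 in knockout tail versus control tail (adjusted p = 0.9997) and -1.76 in knockout back versus knockout tail (adjusted p = 0.0552). The list's median was 0.23 in knockout tail versus control tail and -0.61 in knockout back versus knockout tail, beside -0.05 and -0.18 over all genes. In the second comparison 12 of 14 genes (85.7%) lay below 0, beside 63.2% of all genes.

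Of 28 measured genes that carry the enzymes to melanosomes, 2 fell in knockout back versus knockout tail (beside 1.5% of all genes called) and none was called in the other comparisons. Rab38 and Rab32, a pair of related small GTPases, are required for delivery of tyrosinase and Tyrp1 in mouse melanocytes. Rab38 had 9010, 9145 and 13100 normalised counts in knockout back and 25975, 32233 and 23810 in knockout tail, against 15775, 21114 and 14246 in control tail. It was lowest in the back and highest in the knockout tail, and it fell by 1.36 between those 2 groups (SE 0.21, limma adjusted p = 0.0306). Rab32 fell by 1.22 (SE 0.20, adjusted p = 0.0345). With the library set as a term the adjusted p was 0.0599 for Rab38 and 0.0629 for Rab32, so both calls were lost.

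The median of the trafficking list was -0.57 in knockout back versus knockout tail and -0.66 in knockout back versus control tail, beside -0.18 and -0.23 over all genes. In each, 20 of 28 genes (71.4%) lay below 0, near the share over all genes, 63.2% and 66.3%. Several members were at 0 in the 2 back libraries that had the most genes at 0. Hps6, a subunit of the BLOC-2 complex, had 0, 0 and 224 normalised counts in knockout back and 1279, 672 and 430 in knockout tail, against 954, 1000 and 643 in control tail (limma adjusted p = 0.0847 for back versus tail).

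None of 22 measured transcriptional regulators of the enzyme genes was called by limma in any comparison. An unadjusted p under 0.05 was found for 1 of them in knockout tail versus control tail, 5 in knockout back versus knockout tail and 10 in knockout back versus control tail. Of all 16299 genes 814, 3474 and 4255 had one in the same order, so such values were common. From these recovered counts limma-voom called 0 of the regulators. Tfap2b, an AP-2 factor, had deposited means of 13.33 ± 0.37 in knockout tail and 13.36 ± 0.34 in knockout back, against 13.93 ± 0.13 in control tail, differences of -0.60 (limma adjusted p = 0.909) and -0.57 (adjusted p = 0.175) from control tail. Mitf, named above as a regulator of the 3 enzymes, did not pass either. Its differences were 0.15 in knockout tail versus control tail (limma adjusted p = 0.9997), 0.68 in knockout back versus knockout tail (adjusted p = 0.116) and 0.83 in knockout back versus control tail (adjusted p = 0.0592). The list's medians were 0.04, 0.22 and 0.17 in the same order. In knockout back versus knockout tail 15 of the 22 differences were above 0, beside 36.7% of all genes. In knockout back versus control tail 13 were, beside 33.7%.

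Of 29 measured receptors and signal carriers upstream of the enzyme genes, 1 rose, in knockout back versus control tail (beside 1% of all genes called). Met, the receptor of hepatocyte growth factor, had 12173, 9107 and 21946 normalised counts in knockout back and 4399, 3674 and 14674 in knockout tail, against 2185, 2544 and 3194 in control tail. Within each set the back libraries were the highest. Met rose by 1.54 in knockout back versus control tail (SE 0.27, limma adjusted p = 0.0464), a call that was lost in limma-voom with group only (2.40, adjusted p = 0.0946). Pde4b, a phosphodiesterase that breaks down cyclic AMP, had a difference of 1.12 in knockout tail versus control tail (adjusted p = 0.609) and of 1.19 in knockout back versus control tail (adjusted p = 0.0603).

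Of 11 measured paracrine ligands of pigment cells, out of 22 listed, 1 fell in knockout back versus knockout tail (beside 1.5% of all genes called). Fgf7, keratinocyte growth factor, is a fibroblast product, and it was low in every library. It had 4.31, 4.68 and 185 normalised counts in knockout back and 840, 780 and 728 in knockout tail, against 283, 351 and 569 in control tail. The 4.31 and 4.68 were in the 2 back libraries that had the most genes at 0. Fgf7 fell by 1.76 on the deposited scale in knockout back versus knockout tail (SE 0.34, limma adjusted p = 0.0451), a call that was lost with the library set as a term (adjusted p = 0.0813). Sums of the 4 measured of 7 fibroblast markers were 1598 to 3228 normalised counts in knockout tail and 400 to 2388 in knockout back, against 925 to 1985 in control tail, with Col1a1 and Col3a1 at 0 in at least 1 library. Their part in the Fgf7 result was not tested. Kitl, the ligand of Kit, had a difference of -1.42 in knockout back versus knockout tail (adjusted p = 0.154).

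None of the 15 genes for folding and quality control of the enzymes in the endoplasmic reticulum was called by limma or limma-voom in any comparison. An unadjusted p under 0.05 was found for 3 in knockout tail versus control tail, 2 in knockout back versus knockout tail and 4 in knockout back versus control tail. Of all 16299 genes 814, 3474 and 4255 had one in the same order. In knockout tail versus control tail 12 of 15 differences were above 0, with a median of 0.33 beside -0.05 over all genes, and in knockout back versus knockout tail 12 of 15 were below 0, with a median of -0.34 beside -0.18. The first pair of groups shares the knockout tail libraries with the second. Canx, the calnexin that chaperones tyrosinase, had deposited means of 14.26 ± 0.12 in knockout tail and 14.52 ± 0.41 in knockout back, against 13.77 ± 0.38 in control tail. Uggt1, the glucosyltransferase that returns misfolded glycoproteins to calnexin, was at 13.17 ± 0.17 in knockout tail and 12.73 ± 0.44 in knockout back, against 12.15 ± 0.35 in control tail, a difference of 1.01 in knockout tail versus control tail (limma adjusted p = 0.634).

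In limma's fit that included the library set, 9 members of the lists were called in knockout back versus control tail, beside 3.34% of all genes. Besides Mlana, Met, Gch1 and Pde4b (1.38, adjusted p = 0.0473) these were genes chosen for mention after their values were seen. Kit, the receptor that melanocytes need to survive and migrate, was higher by 1.36 (adjusted p = 0.0452) and Ctnnb1, which encodes beta-catenin, by 0.85 (adjusted p = 0.0438). Slc24a5, the cation exchanger mutated in golden zebrafish, was lower (-0.67, adjusted p = 0.0439), as were the trafficking genes Anxa2 (-0.81) and Gipc1 (-0.95) and Gch1, the first enzyme of tetrahydrobiopterin synthesis (-2.24, adjusted p = 0.0483). Gch1 was at 0, 0 and 484 normalised counts in knockout back, against 913, 1290 and 644 in control tail. Both 0 values were in the 2 back libraries that had the most genes at 0.

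**Figure D4:**
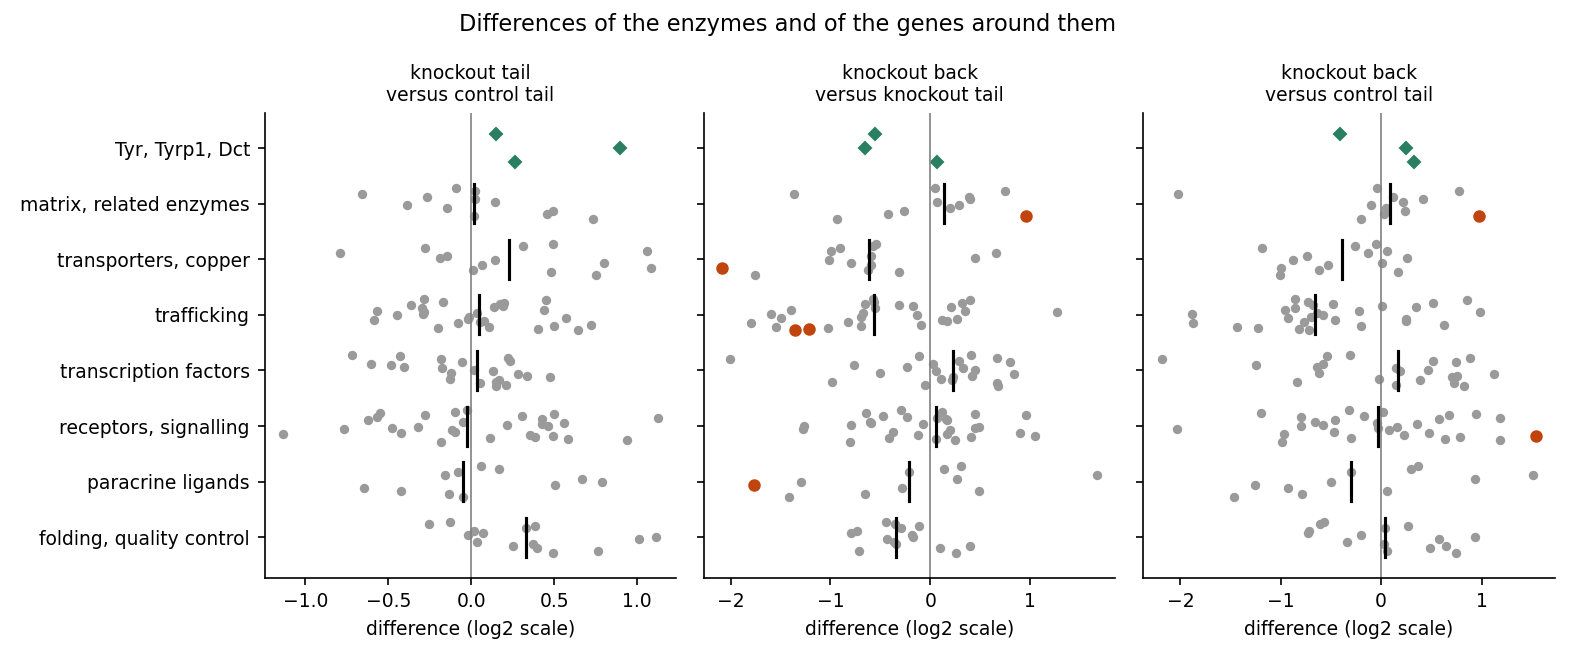
Differences on the log2 scale of the 3 enzymes (green diamonds, Tyr, Tyrp1 and Dct from top to bottom) and of the measured genes of 7 lists (grey points, with the list's median as a black bar) in the 3 comparisons. Red points are genes with an adjusted p under 0.05 in limma: none in knockout tail versus control tail, Mlana above 0 and Slc24a4, Rab38, Rab32 and Fgf7 below 0 in knockout back versus knockout tail, and Mlana and Met in knockout back versus control tail.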

How the data were processed

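Trizol extraction, SMART-Seq v4 library preparation and paired-end Illumina NovaSeq sequencing were used, per the labels' protocols. The authors deposited 1 table of log2-scale values; the submitters' processing notes name DESeq2 and GRCm38, and no source used here names the aligner or counter. The deposited log2 values fit a variance-stabilising curve with a value of 7.98 at 0 counts, and a mean shift between the 2 library sets had been removed: the set means were equal to within 7.14e-09 in every gene, while the next best of 255 partitions had differences up to 1.5. On that curve log2 differences of low-count genes come out too small.

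Inverting both steps returned whole counts in 16298 of 16299 genes within 0.02 of a whole number, the 3 enzymes among them; on simulated data 1556 of 1557 genes were recovered exactly. Size factors came from the same recovery. Differences were tested with limma 3.58.1 (R 4.3.3; trend and robust moderation; group as the only term, all 9 libraries; Benjamini-Hochberg over all genes; threshold 0.05), because the values are on a log scale. Exact permutation tests used scipy 1.17.1 and are two-sided. Alternatives are a library-set term, a replicate block, array weights, fewer libraries, quantile normalisation, a minimum mean of 10, and limma-voom on recovered counts. Samples were not paired by replicate number outside the replicate block. Deviations of the third libraries of both knockout groups correlated at -0.70, as the shift removal forces, so they cannot show whether those libraries were paired. Deviations of other same-numbered libraries correlated at -0.17 to 0.08. With 3 libraries per group these low values cannot settle whether samples were paired. The fit with group only and the permutation tests treat the deposited values as independent, so their SEs and p-values do not count the removed shift.

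The enzymes, lists and alternatives were chosen with earlier results of these data known. Pathway genes were named where they passed the threshold or had the 2 largest absolute differences of their list in a comparison, though not all of these are described. Mitf was added as the regulator named in the opening. The 5 genes most like each enzyme were named by Pearson's r. Of the 11 marker lists, endothelial (0 of 6 markers in the table), mast cell (1 of 8, Kit), blood (1 of 6, Alas2), T cell (4 of 8), Langerhans and myeloid (6 of 10) and muscle (2 of 6) lists are largely not analysed here. Sequences are from RefSeq (GRCm38.p6), matched by symbol for all 3 enzymes, and coordinates are counted from 1.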

Additional observations from a re-analysis of the deposited data

How the results depend on the processing

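Differences are on the log2 scale with limma's adjusted p where given. Counts of called genes moved most. In knockout tail versus control tail 0 became 10 with the library set as a term and 8 with the removed shift put back. In knockout back versus knockout tail 244 became 71 with the set term, 1325 with array weights, 2 with only the compared groups, 1637 with the 7 libraries of the larger set, 0 without the first and second back libraries, 84 at a minimum mean of 10, 31 with the shift put back, and 3 to 1972 when 1 library was left out. In knockout back versus control tail 163 became 545, 903, 7, 2371 and 0 in the first 5 of these settings, 284 at a minimum mean of 10, 471 without trend and robust moderation, 579 with quantile normalisation, 317 with limma-voom, 440 with limma-voom and the set term, and 0 to 2804 when 1 library was left out. The replicate block gave 21 and 42 calls in the 2 back comparisons and changed no call of an enzyme (Tyrp1 in knockout tail versus control tail kept 0.90, adjusted p = 0.447).

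Tyrp1 in knockout tail versus control tail passed only with the set term (0.99), and lay between 0.81 and 1.08 over all fits that left out 1 library, with or without that term. It was 0.14 with quantile normalisation, 1.28 with limma-voom and 1.37 with the shift put back, and passed in none of these. In knockout back versus knockout tail Tyr also passed with array weights (-0.57) and quantile normalisation (-1.07), and Tyrp1 with array weights (-0.73), in the 7 libraries (-0.75) and in limma-voom with the set term (-0.51); Tyrp1 was -0.07 with quantile normalisation and passed neither there nor in limma-voom with group only; leaving out 1 library gave -0.59 to -0.51 for Tyr and -0.80 to -0.56 for Tyrp1. In the same comparison Dct was 0.54 with quantile normalisation, where it passed, -0.0792 in the 7 libraries, -0.0906 with limma-voom, -0.0583 with limma-voom and the set term, and -0.0585 to 0.13 without 1 library. Dct in knockout tail versus control tail was -0.32 with quantile normalisation and -0.0927 with the shift put back. For knockout back against control tail Dct was -0.0756 with limma-voom, 0.32 with limma-voom and the set term, and -0.0314 with the shift put back. There Tyr passed with quantile normalisation (-0.64), and was -0.06 with limma-voom and -0.08 with the shift put back. Tyrp1 was 0.07 with quantile normalisation and 0.76 with limma-voom. Quantile normalisation ties the top ranks of each library to fixed values, so genes of the highest ranks, such as these, move by its construction.

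Ratios moved with quantile normalisation and the recovered counts. In knockout tail versus control tail quantile normalisation gave -0.30 for Tyrp1 over Tyr, -0.75 for Dct over Tyr and -0.45 for Dct over Tyrp1, and recovered counts gave -0.57 and -1.46 for the ratios with Dct. For knockout back against knockout tail quantile normalisation gave 1.005, 1.615 and 0.61 in the same order. For knockout back against control tail recovered counts gave 0.0514 for Dct over Tyr and -0.75 for Dct over Tyrp1. The correlation of Tyr with Tyrp1 was -0.18 after group means were taken out. With the shift kept in, by recovered counts or put back, the libraries fall into 2 clusters and a pooled r measures the gap between them. It was 0.78 for Tyr with Tyrp1, -0.86 for Tyr with Dct and -0.64 for Tyrp1 with Dct. Without the 2 libraries farthest from the median it was 0.57, -0.66 and 0.79. Only for Tyrp1 with Dct were those 2 the smaller set. For both pairs with Tyr the third knockout back library stayed in, so 0.57 and -0.66 still hold the gap. Counting error was small for the enzymes, and exact permutation tests of 3 against 3 libraries cannot go below 0.1.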
